A study of Homo sapiens with 5 samples.

Results

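The 10 genes described here belong to the NRF2 oxidative stress response and to iron storage and were followed in single SW480 cells taken from zebrafish xenografts. They were chosen by symbol (FTH1, FTL, TFRC, NQO1, GCLM, GCLC, TXNRD1, HMOX1, SRXN1 and GPX4) by a rule that uses no measured value, although earlier results of these data were known, and all 10 are among the 15266 human genes listed in all 5 libraries. SW480 is a human colorectal cancer line derived from a primary tumor. GFP-transfected SW480 cells were injected into zebrafish embryos, and tumors dissected at 1 and 4 days post injection (dpi) were dissociated and FACS sorted as single cells into 384-well plates for SORT-seq, which counts RNA molecules of each gene by unique molecular identifiers (UMIs). Each plate is 1 library: libraries 6, 7 and 8 come from 1 dpi (n = 3) and libraries 10 and 11 from 4 dpi (n = 2). All animals received the same line and no drug, so the groups differ by time after injection alone as far as the labels say. Tumors were pooled before sorting, and it is not stated whether the plates of 1 dpi, or those of 4 dpi, were filled from different pools, so p values measure the spread between plates, which may be technical.

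NRF2, encoded by NFE2L2, is a transcription factor that KEAP1 holds in the cytosol and marks for destruction until oxidants or electrophiles release it. In the nucleus it pairs with small MAF proteins on antioxidant response elements and raises enzymes that make glutathione, reduce thioredoxin and detoxify quinones and heme. Iron joins this system because free ferrous iron turns peroxides into radicals: ferritin stores it, the transferrin receptor imports it, and GPX4 reduces the lipid peroxides whose build-up with iron causes ferroptosis. Iron regulatory proteins bind hairpins called iron-responsive elements in the messenger RNAs of ferritin and of the transferrin receptor, where binding in the 5′ UTR holds back translation and binding in the 3′ UTR protects the messenger RNA.

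The hairpin letters are shown because they set the ferritin chains and TFRC apart from the other members. A search of the untranslated regions of canonical GENCODE transcripts (hg38) for a bulged C, a CAGTGN loop and paired stem arms found a match in 18 of 19701 transcripts (0.0914%), among them 3 of the 10 members. Each sequence is written 5′ to 3′ on the strand of the gene, with the first bases of the loop in capitals.
FTH1, 5′ UTR, chr11:61967575-61967601, minus strand: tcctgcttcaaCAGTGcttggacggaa
FTL, 5′ UTR, chr19:48965336-48965362, plus strand: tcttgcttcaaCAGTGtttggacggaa
TFRC, 3′ UTR, chr3:196050980-196051006, minus strand: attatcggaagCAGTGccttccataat
TFRC, 3′ UTR, chr3:196050576-196050602, minus strand: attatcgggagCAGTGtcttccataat
TFRC, 3′ UTR, chr3:196050511-196050537, minus strand: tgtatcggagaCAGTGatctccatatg
TFRC, 3′ UTR, chr3:196050464-196050490, minus strand: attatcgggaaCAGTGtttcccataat
The ferritin chains carried 1 match each at the 5′ end and TFRC carried 4 at the 3′ end. A match is a match of letters, not a measured binding site.

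Promoters were searched for the letters TGACNNNGC or TGAGNNNGC, a core of the antioxidant response element, on both strands of a window from 250 bases before to 50 bases after the RefSeq start site (GRCh38.p14). The table lists 11 promoters of 8 members, with 2 for TXNRD1, 3 for GPX4 and none for FTH1 and HMOX1. A match was found in 4 of the 11 promoters (36.4%), those of NQO1, GCLM and TXNRD1, against 29.1% of 35116 promoters. The 250 bases before the start are shown for these 3 genes. NQO1 and TXNRD1 are among the members that were higher in cells of high mitochondrial share, and GCLM was not called there. GPX4 was also called higher there, and none of its 3 promoters had a match. The capitals mark the matches on either strand, which are cut where they run past the start. The sets of letters differ in 1 base and cannot match at the same place.
NQO1, chr16:69726561-69726810, minus strand: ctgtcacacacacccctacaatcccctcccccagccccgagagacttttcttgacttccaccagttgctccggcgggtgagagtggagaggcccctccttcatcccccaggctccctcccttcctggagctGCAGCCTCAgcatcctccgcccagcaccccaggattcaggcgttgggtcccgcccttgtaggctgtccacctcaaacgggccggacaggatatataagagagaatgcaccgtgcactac
GCLM, chr1:93909431-93909680, minus strand: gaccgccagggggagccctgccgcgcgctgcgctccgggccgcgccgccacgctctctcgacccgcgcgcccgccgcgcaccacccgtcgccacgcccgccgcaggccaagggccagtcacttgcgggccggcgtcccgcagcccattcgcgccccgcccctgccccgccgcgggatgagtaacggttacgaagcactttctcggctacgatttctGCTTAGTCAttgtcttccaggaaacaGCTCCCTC
TXNRD1, chr12:104215529-104215778, plus strand: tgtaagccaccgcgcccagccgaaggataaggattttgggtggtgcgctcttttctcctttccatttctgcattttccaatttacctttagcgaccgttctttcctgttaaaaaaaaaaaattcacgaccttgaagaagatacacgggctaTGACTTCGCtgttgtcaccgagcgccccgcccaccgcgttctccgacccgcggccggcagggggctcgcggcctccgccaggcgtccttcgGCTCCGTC
TXNRD1, chr12:104286782-104287031, plus strand: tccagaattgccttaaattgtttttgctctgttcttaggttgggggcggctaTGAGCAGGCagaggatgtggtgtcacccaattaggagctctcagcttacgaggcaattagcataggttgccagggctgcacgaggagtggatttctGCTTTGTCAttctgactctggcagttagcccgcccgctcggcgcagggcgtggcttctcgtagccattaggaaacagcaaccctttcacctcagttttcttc
The share among promoters of members is near that among all promoters. Sequence outside this window was not searched, so the share says nothing of elements farther from the start.

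Of 1920 wells, 826 passed the filter (over 2000 genes seen and under 25% of UMIs from mitochondrial genes, with ERCC spike-ins counted in both), 533 at 1 dpi and 293 at 4 dpi. All later shares leave the spike-ins out of the total and reach 26.5% in these cells. The median UMIs per cell ranged from 25938 to 36197 at 1 dpi and from 18823 to 26120 at 4 dpi, and the median mitochondrial share from 10.9% to 13.1% over the 5 libraries. EPCAM and KRT8 were seen in 100% of the cells and CDX2 in 31.1%, while KRT20 (9 UMIs) and CDX1 (1 UMI) were nearly absent. Erythroid markers matter here because red cell precursors are rich in transferrin receptor. GATA1 and ALAS2 had 0 UMIs and HBB had 3, and 2 of 12 genes passed the filter on wells. These were HBA1, with 147 UMIs in 12.1% of the cells, and SLC4A1, with 63 UMIs in 6.54%. The summed erythroid list was between 6.80 and 13.4 CPM, the UMIs of a gene scaled to a fixed library total, at 1 dpi and 4.75 and 5.81 CPM at 4 dpi. The leukocyte list had 7 of 14 genes kept, with MPO, TYROBP and CD3E at 0 UMIs and CD68 the highest at 81. It summed to between 13.6 and 17.8 CPM at 1 dpi and to 9.50 and 10.9 CPM at 4 dpi. The endothelial and stromal list had 4 of 12 genes kept, with CDH5 and COL1A2 at 0 UMIs. Its most frequent genes were LUM, with 597 UMIs in 37.0% of the cells, and COL1A1, with 139 UMIs in 7.99%. This list summed to between 24.9 and 27.8 CPM at 1 dpi and to 34.3 and 45.7 CPM at 4 dpi. Of the mitosis list, 20 of 20 genes were called higher at 4 dpi (median log2 difference 1.11), with sums of 765 to 944 CPM at 1 dpi against 1853 and 1986 CPM at 4 dpi, and the list of dissociation and stress genes, with 4 of 20 called higher and 8 lower, had sums of 6819 to 8787 CPM against 5875 and 6357 CPM. Over all genes tested, 13.4% were called higher and 14.2% lower at 4 dpi. The part of these lists in the differences between time points was not tested.

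Between the time points, UMIs summed over the passing cells of a library were compared. The transferrin receptor fell more than 2-fold, NQO1, SRXN1 and GCLC fell less, GPX4 and the ferritin light chain rose, and the ferritin heavy chain, GCLM, TXNRD1 and HMOX1 did not pass the test. Of the 10 members, 2 were called higher, against 13.4% of 12646 genes tested, and 4 lower, against 14.2%. The median log2 difference (4 dpi minus 1 dpi) was -0.14 over the members and 0.00 over all genes tested. For 7 members no library of one time point lay within the range of the other, 2 higher and 5 lower at 4 dpi, but 54.6% of all genes tested share this (27% higher, 27.6% lower). A sum over cells cannot tell fewer cells with a transcript from less of it in each cell.

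Among the genes of iron uptake and storage, TFRC, which encodes the receptor that takes up transferrin-bound iron, stood at 344, 345 and 313 CPM in libraries 6, 7 and 8 and at 134 and 137 CPM in libraries 10 and 11. The lowest library of 1 dpi was more than 2-fold above the highest of 4 dpi. The fall was 2.47-fold (log2 difference -1.30 ± 0.098 SE, edgeR adjusted p = 3.1e-07), the most negative among the members. Libraries 6, 7 and 10 share a code in the names of the deposited data, which libraries 8 and 11 lack. The labels do not say what this code means, and it serves here only to split the libraries by its presence. The TFRC difference was -1.37 within libraries 6, 7 and 10 and -1.19 within libraries 8 and 11. In cells, TFRC was seen with at least 1 UMI in 96.9%, 99.3% and 95.1% of the cells of libraries 6, 7 and 8 (exact 95% intervals between 90.6% and 100.0%, counting error only) and in 80.3% and 73.9% of those of libraries 10 and 11 (intervals 72.5% to 86.7% and 66.4% to 80.5%). After every cell was thinned to 5000 UMIs of genes other than mitochondrial ones, which 221, 139, 159, 126 and 154 cells held, the shares were 82.4%, 80.6%, 75.5%, 49.2% and 43.5%, so the difference remained at equal depth. The plates hold no cell type that should lack TFRC, so no background share can be set beside these.

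FTL encodes the ferritin light chain, which helps to lay down the iron core. Its level was 767, 978 and 1059 CPM in libraries 6, 7 and 8 and 1393 and 1323 CPM in libraries 10 and 11. All libraries of 4 dpi were above all of 1 dpi, and the rise was 1.45-fold (log2 0.54 ± 0.11 SE, edgeR adjusted p = 0.00216). The log2 difference was 0.68 within libraries 6, 7 and 10 and 0.32 within libraries 8 and 11. FTH1, the heavy chain, which carries the ferroxidase activity that oxidizes iron for storage, stood at 2465, 3062 and 2783 CPM at 1 dpi and 2595 and 2691 CPM at 4 dpi. These libraries overlapped, and the difference of -0.07 ± 0.093 SE did not pass the test (edgeR adjusted p = 0.623). The chains of one protein shell thus had different outcomes at the RNA level, although the difference between them was not itself tested. Every cell of every library had UMIs of FTH1 and FTL. The genome holds many processed copies of FTH1 and FTL, and reads could be split between them and the copies, but the only such row kept, FTH1P3, had 87 UMIs in all against 47816 and 20645 for FTH1 at 1 and 4 dpi.

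GPX4, the selenoenzyme that reduces lipid hydroperoxides in membranes, was at 245, 235 and 267 CPM in libraries 6, 7 and 8 and at 407 and 394 CPM in libraries 10 and 11. The groups were well apart, and GPX4 rose 1.61-fold (log2 0.69 ± 0.092 SE, edgeR adjusted p = 7.5e-05). The log2 differences were 0.76 within libraries 6, 7 and 10 and 0.56 within libraries 8 and 11.

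Among the NRF2 target enzymes the called changes were falls. NQO1, which reduces quinones by transfer of 2 electrons, was at 33.7, 28.9 and 34.2 CPM at 1 dpi and at 17.1 and 18.2 CPM at 4 dpi. The fall was 1.83-fold (log2 -0.87 ± 0.16 SE, edgeR adjusted p = 0.00124) and rested on 567 UMIs at 1 dpi and 138 at 4 dpi. SRXN1, sulfiredoxin, which repairs overoxidized peroxiredoxins, was at 74.6, 76.7 and 71.0 CPM and then at 55.4 and 49.9 CPM, a 1.41-fold fall (log2 -0.49 ± 0.12 SE, edgeR adjusted p = 0.00565). The libraries of these genes did not overlap between the time points.

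Glutathione synthesis starts with glutamate-cysteine ligase, of which GCLC is the catalytic and GCLM the modifier subunit. GCLC was at 46.5, 53.1 and 53.8 CPM at 1 dpi and at 38.8 and 38.2 CPM at 4 dpi, with a 1.32-fold fall (log2 -0.40 ± 0.13 SE, edgeR adjusted p = 0.0293). GCLM was at 43.6, 46.9 and 44.3 CPM and then at 46.1 and 41.4 CPM, which overlapped (log2 -0.04 ± 0.13 SE, edgeR adjusted p = 0.857). GCLC lost its call under DESeq2 (adjusted p = 0.0878) and with libraries 7, 8, 10 or 11 left out (adjusted p from 0.0812 to 0.110), and SRXN1 lost it without library 11 (adjusted p = 0.0541), where library 10 alone stood for 4 dpi. In cells with a mitochondrial share under 15%, SRXN1 was at -0.25 (adjusted p = 0.186) and GCLC at -0.29 (adjusted p = 0.187), and after thinning to 5000 UMIs per cell at -0.49 (adjusted p = 0.149) and -0.32 (adjusted p = 0.404).

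TXNRD1, the cytosolic thioredoxin reductase, was at 145, 129 and 122 CPM in libraries 6, 7 and 8 and 114 and 114 CPM in libraries 10 and 11. These values did not overlap, but the difference of -0.22 ± 0.11 SE did not pass the test (edgeR adjusted p = 0.140). HMOX1, heme oxygenase, which opens the heme ring and frees its iron, was nearly silent with 28 UMIs at 1 dpi and 19 at 4 dpi. It was seen in 1.75% to 6.06% of the cells of a library, and in library 8 its 12 UMIs came from 4 of 163 cells. Its log2 difference of 0.56 ± 0.56 SE was not distinguishable from 0 at this depth (edgeR adjusted p = 0.487).

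**Figure D1:**
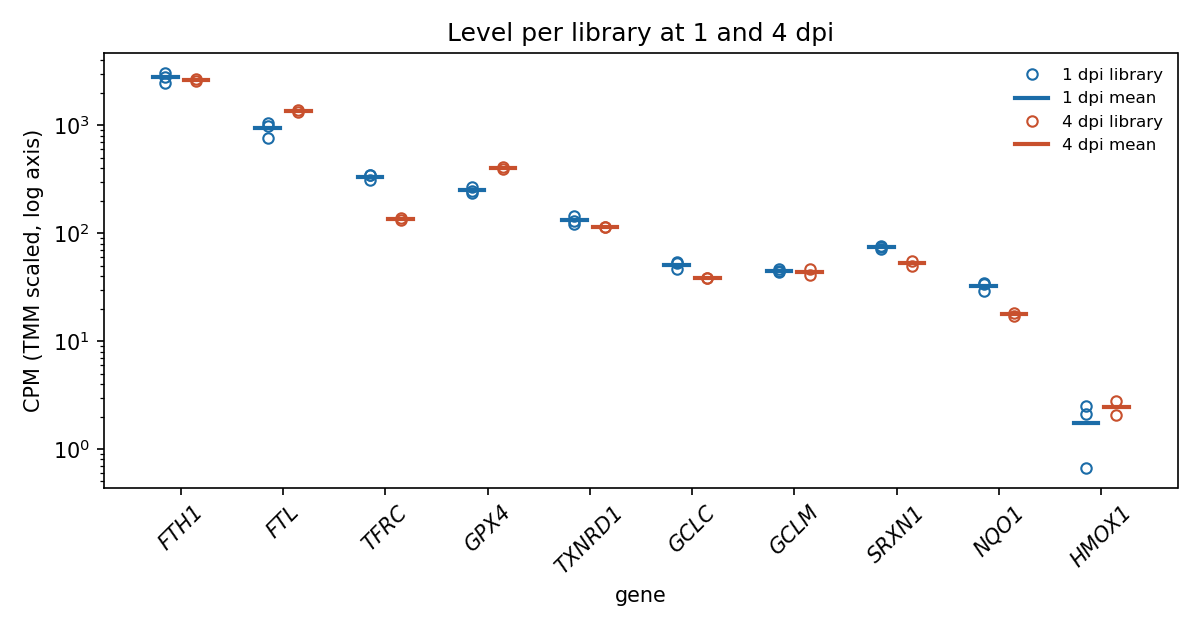
Level of each gene in CPM (TMM scaled, log axis) in the 3 libraries of 1 dpi (blue circles) and the 2 libraries of 4 dpi (orange circles), with bars at the group means. TFRC lies near 334 CPM at 1 dpi and 136 CPM at 4 dpi, GPX4 moves from 249 to 401 CPM, and the circles of FTH1, GCLM and HMOX1 overlap between the groups. UMIs were counted at the 3′ end, so the plot compares time points within a gene.

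SRXN1 and GCLC were also compared between the time points within cells of low and of high mitochondrial share, where low and high mean at or below and above the median share of the cell's own library. In high-share cells alone SRXN1 fell by 0.85 on the log2 scale (edgeR adjusted p = 0.00117) and GCLC by 0.60 (adjusted p = 0.0222), while in low-share cells alone the values were -0.22 (adjusted p = 0.326) and -0.21 (adjusted p = 0.426). TFRC, FTL, GPX4 and NQO1 were called in the low-share and in the high-share cells, TFRC with -1.33 and -1.22. These fits within the share groups were chosen after the data had been seen, and the test of the difference between them, the interaction given further on, did not pass for SRXN1 or GCLC (adjusted p = 0.0580 and 0.321).

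The mitochondrial share of a cell is the percentage of its UMIs that come from the 37 genes of the mitochondrial genome. To ask whether the members vary with it, cells above and at or below the median of their own library were summed apart, mitochondrial genes were removed from counts and totals, and the library was a block. GPX4, TXNRD1 and NQO1 were higher in the high-share cells, by less than 1.5-fold, and none of the members was called lower. That is 3 of 9 members tested, against 10.5% of 11003 genes called higher and 9.5% called lower, and by DESeq2 1 member was called higher and 0 lower. At an unadjusted p under 0.05, 5 members were higher and 0 lower. HMOX1 had too few UMIs to be tested. The median log2 difference (high minus low share) was 0.20 over the 9 members and 0.00 over all genes tested, and 4 members were higher in all 5 libraries, against 16.2% of all genes, and 0 lower in all 5, against 15% (31.2% in either direction).

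GPX4 was at 254, 242 and 276 CPM in the low-share cells of libraries 6, 7 and 8 and at 307, 286 and 332 CPM in their high-share cells. In libraries 10 and 11 it was at 408 and 402 CPM in the low-share and 557 and 525 CPM in the high-share cells. Within each library the high-share value was the larger, with a 1.25-fold difference (log2 0.32 ± 0.081 SE, edgeR adjusted p = 0.0162). It thus differed with time and with mitochondrial share, and the low-share cells of 4 dpi stood above the high-share cells of 1 dpi.

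TXNRD1 was at 144, 141 and 119 CPM in the low-share cells and 191, 149 and 161 CPM in the high-share cells of libraries 6, 7 and 8. In libraries 10 and 11 the values were 118 and 120 CPM against 150 and 148 CPM. The difference was 1.24-fold (log2 0.31 ± 0.096 SE, edgeR adjusted p = 0.0362) and was smallest in library 7. NQO1 was at 32.9, 25.5 and 37.9 CPM against 45.4, 39.8 and 39.1 CPM at 1 dpi, and at 14.5 and 16.5 CPM against 27.5 and 26.8 CPM at 4 dpi. It was 1.43-fold higher in the high-share cells (log2 0.51 ± 0.16 SE, edgeR adjusted p = 0.0368), with almost no difference in library 8 (0.04). These calls did not all last. Without library 10 none of the 3 members was called (edgeR adjusted p = 0.0725 for GPX4, 0.0978 for TXNRD1 and 0.112 for NQO1). Without library 6 or 11 GPX4 alone was called. Leaving out library 7 cost NQO1 its call (adjusted p = 0.0938), and leaving out library 8 cost TXNRD1 its call (adjusted p = 0.110). After thinning to equal depth none was called (adjusted p = 0.287, 0.266 and 0.377 for GPX4, TXNRD1 and NQO1). The log2 differences were then 0.19, 0.27 and 0.46, from fewer UMIs and with 6583 genes tested.

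TFRC was higher in the high-share cells of all 5 libraries but missed the threshold (log2 0.24 ± 0.084 SE, edgeR adjusted p = 0.0640). FTH1 was higher in 4 of 5 (log2 0.20 ± 0.072 SE, edgeR adjusted p = 0.0680), with library 11 the exception at 3184 CPM in the low-share and 3040 CPM in the high-share cells. FTL, GCLM, GCLC and SRXN1 had differences of 0.09, 0.20, 0.09 and -0.07 with adjusted p between 0.351 and 0.757. FTH1 was called without library 11 (0.26, edgeR adjusted p = 0.0428) and between the upper and lower of 3 equal tiers of share (0.34, adjusted p = 0.0486). In the comparison of tiers TXNRD1 remained called, while GPX4 (adjusted p = 0.0585) and NQO1 (adjusted p = 0.107) were not.

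**Figure D2:**
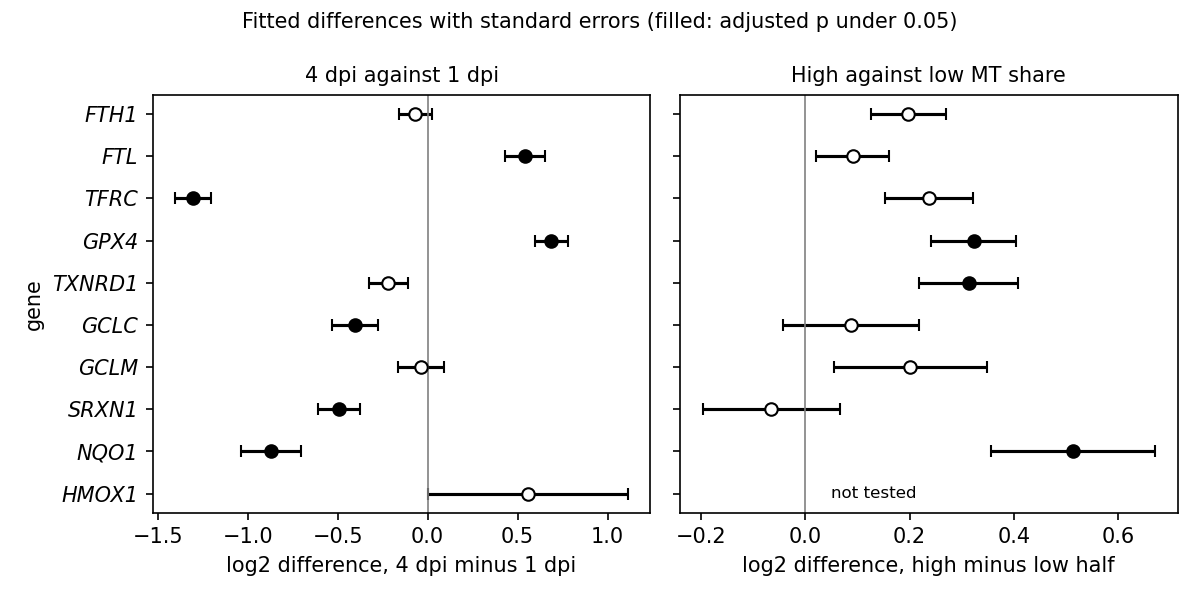
Fitted log2 differences with their standard errors, on the left for 4 dpi minus 1 dpi (3 against 2 libraries) and on the right for cells of high minus low mitochondrial share (5 libraries, library as a block). Filled circles have an edgeR adjusted p under 0.05: 2 genes above and 4 below 0 on the left, and 3 above 0 on the right, where HMOX1 was not tested.

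Other features differed between the same cells. The S phase list was higher in high-share cells, with 14 of 19 genes called higher, 0 lower and a median of 0.65, and its summed level in libraries 10 and 11 was 1762 and 1375 CPM in low-share cells against 2744 and 2848 CPM in high-share cells. The list of dissociation and stress genes had 0 called higher and 4 of 19 lower by edgeR (1 and 5 at an unadjusted p under 0.05). Over all genes tested, 10.5% were called higher and 9.5% lower. High-share cells had fewer UMIs in the median in libraries 6, 8 and 10 (25184.5, 24086 and 24231 against 33119, 26877.5 and 28551). In libraries 7 and 11 they had more, with mitochondrial UMIs counted. Without those, high-share cells had medians of 32164 against 32025 in library 7 and 16476.5 against 16630 in library 11. Libraries 6, 8 and 10 kept their direction. The part of the cell cycle, of stress and of depth in the differences of the members was not tested.

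Weighted by cell rather than by UMI, the relation was weak. Within a library, after thinning, Spearman's rho of a member with the mitochondrial share had a median over the 5 libraries between -0.11 (SRXN1) and 0.09 (FTH1), over 126 to 221 cells per library. All 4347 genes seen in at least 20% of thinned cells had a median rho of -0.02. The 5th and 95th percentiles were -0.16 and 0.14, and every member lay inside that range. NQO1 and HMOX1 were seen in too few thinned cells to belong to that set. They were seen in 7.8% to 16.3% and in 0.45% to 2.4% of the thinned cells of a library. A gene with few UMIs can only correlate weakly. GPX4, TXNRD1 and NQO1 had medians of 0.04, 0.02 and 0.06. The cells of a library share its plate, and the sums give more weight to cells with more RNA than a correlation does.

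In the summed counts SRXN1, GCLM and GCLC differed in direction between the time points. For each of them the high-share cells had the larger value in all 3 libraries of 1 dpi and the smaller value in both libraries of 4 dpi. That is 3 of 9 members, against 3.21% of 11003 genes with this pattern and 6.53% with it or its reverse. SRXN1 went from 80.5, 81.8 and 75.0 CPM in low-share cells to 88.0, 90.4 and 85.8 CPM in high-share cells at 1 dpi, and from 71.8 and 66.4 CPM to 51.4 and 47.5 CPM at 4 dpi. GCLM went from 40.9, 49.0 and 42.1 CPM to 61.4, 56.4 and 59.7 CPM at 1 dpi, and from 57.4 and 49.4 CPM to 46.3 and 46.2 CPM at 4 dpi. GCLC went from 48.1, 58.7 and 53.8 CPM to 58.3, 60.4 and 68.9 CPM, and from 44.8 and 48.8 CPM to 44.1 and 38.8 CPM. Its log2 difference was small in library 7 (0.04) and library 10 (-0.02). By cell, after thinning, rho of GCLM and GCLC with the share was positive in every library of 1 dpi and negative in those of 4 dpi. For SRXN1 rho was -0.11 in libraries 6 and 7, against the direction of the sums, and 0.13 in library 8. In libraries 10 and 11 it was -0.30 and -0.07.

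The test of the difference itself, the interaction of share and time, called none of the 9 members, with 0 higher and 0 lower by edgeR and by DESeq2, against 2.68% of 11003 genes higher and 4.48% lower (7.16% in all). At an unadjusted p under 0.05, 0 members were higher and 2 lower. In simulated data this test found 54.5% of changes of 1 on the log2 scale, so an uncalled interaction does not show its absence. SRXN1 came nearest (log2 -0.64 ± 0.20 SE, edgeR adjusted p = 0.0580), before GCLM (-0.64 ± 0.23 SE, adjusted p = 0.0964) and GCLC (-0.40 ± 0.24 SE, adjusted p = 0.321). SRXN1 was called with a minimum of 1000 genes per cell (-0.69, adjusted p = 0.0360), with no limit on the mitochondrial share (-0.83, adjusted p = 0.0121) and when only the upper and lower tiers of 3 equal tiers of share were compared (-1.25, adjusted p = 0.00207). For GPX4, NQO1, TXNRD1, TFRC, FTH1 and FTL the interaction had an adjusted p between 0.441 and 0.963.

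**Figure D3:**
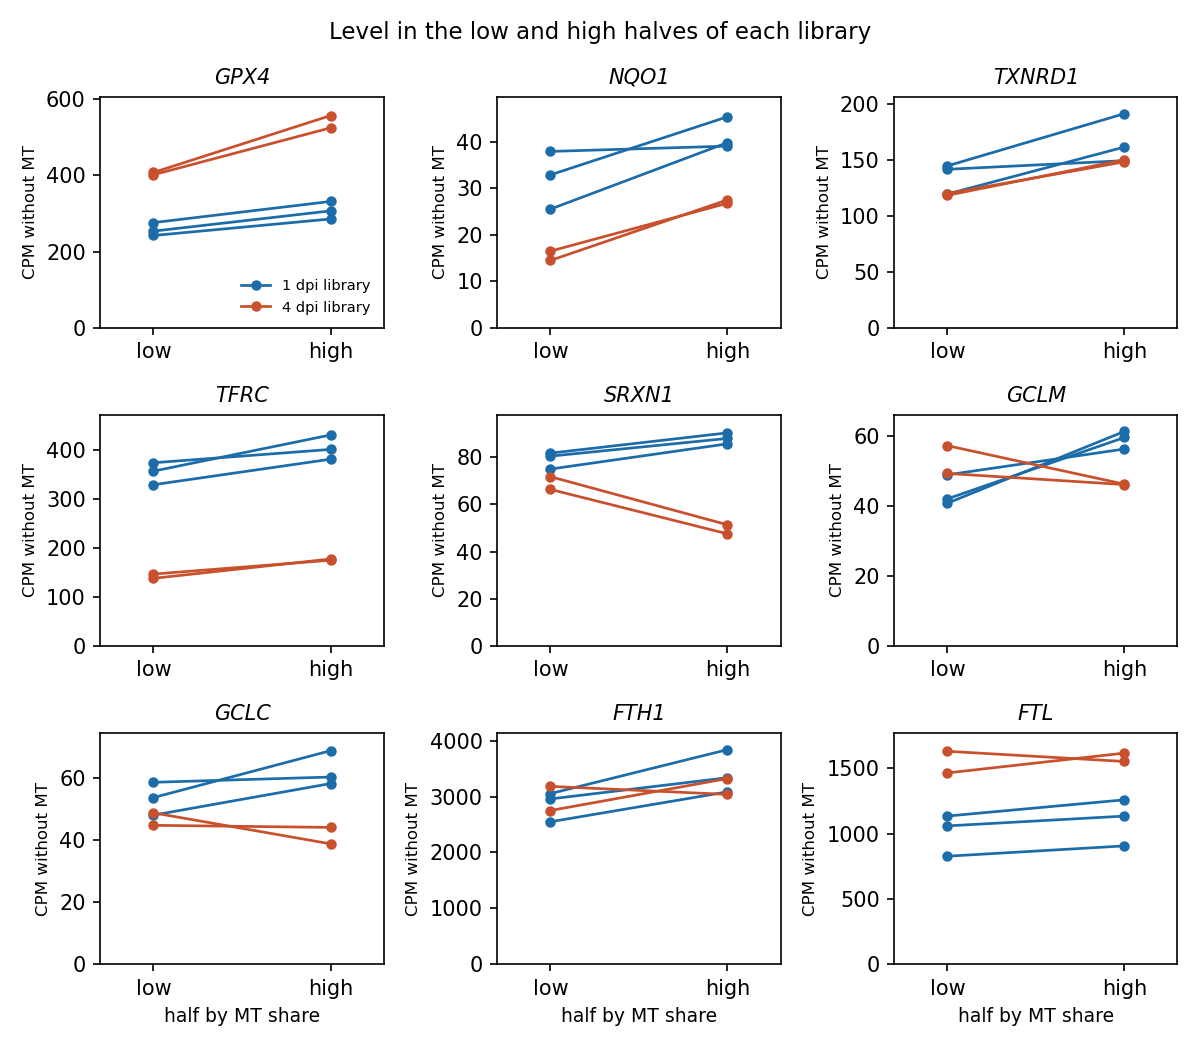
Level of 9 genes in CPM counted outside the mitochondrial genome, in cells of low and high mitochondrial share, with 1 line per library (blue 1 dpi, orange 4 dpi). The lines of GPX4, NQO1, TXNRD1 and TFRC rise in all 5 libraries, and those of SRXN1, GCLM and GCLC rise at 1 dpi and fall at 4 dpi.

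When the cells of each library were cut into 4 groups of equal size by mitochondrial share, SRXN1 at 4 dpi fell from 74.8 and 81.9 CPM in the lowest to 35.4 and 41.0 CPM in the highest group. At 1 dpi it had no common course, with 98.6, 64.5 and 84.7 CPM in the lowest and 97.8, 85.2 and 91.5 CPM in the highest group. TFRC at 4 dpi was level between 138 and 152 CPM over the lower 3 groups and stood at 203 and 205 CPM in the highest, whose median share was 21.1% and 21.2%. Even there it stayed below the 326 CPM of the lowest value at 1 dpi. These values are a description, with no test.

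**Figure D4:**
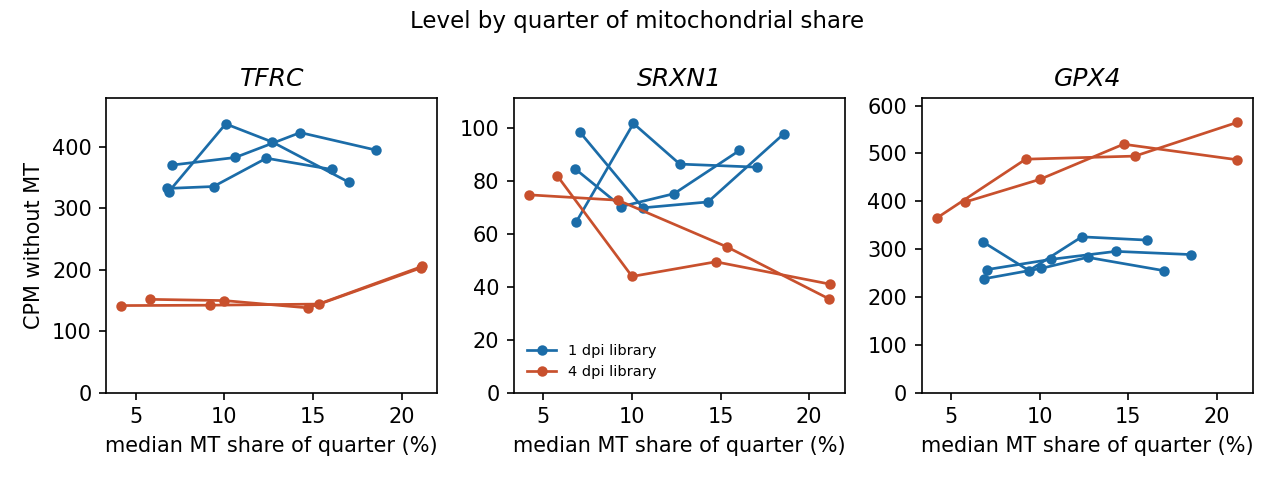
Level of TFRC, SRXN1 and GPX4 in CPM counted outside the mitochondrial genome, against the median mitochondrial share (%) of 4 equal groups of cells, with 1 line per library (blue 1 dpi, orange 4 dpi). The TFRC lines of 4 dpi lie below and the GPX4 lines of 4 dpi above those of 1 dpi at every share, and the SRXN1 lines of 4 dpi fall to 35.4 and 41.0 CPM.

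KEAP1, NRF2 and their partners were measured as a list of regulators. For this and the lists below, the shares over all genes tested serve as the background. With time 13.4% were called higher and 14.2% lower, between the share groups 10.5% and 9.5%, and in the interaction 2.68% and 4.48%. No list was tested as a whole. Of 11 NRF2 regulators tested between the time points 1 was called higher and 3 lower (median log2 difference -0.25). SQSTM1, which encodes the autophagy receptor p62 that competes with NRF2 for KEAP1, rose by 0.43 ± 0.093 SE. NFE2L2 itself fell (-0.40 ± 0.11 SE, edgeR adjusted p = 0.0135), and so did RBX1 (-0.35) and CUL3 (-0.32), parts of the ubiquitin ligase that KEAP1 recruits. Between the share groups 0 of 11 were called higher and 3 lower: NFE2L2 (-0.48), MAFG (-0.41) and MAFF (-0.69), of which MAFG and MAFF encode small MAF partners of NRF2. At an unadjusted p under 0.05, 1 regulator was higher and 6 lower. NFE2L2 was thus lower in the high-share cells, where NQO1 and TXNRD1 were higher.

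Of the 11 regulators, SQSTM1 had the most negative interaction (-1.69 ± 0.14 SE, edgeR adjusted p = 8.8e-07). It was at 606, 610 and 604 CPM in the low-share and 537, 650 and 617 CPM in the high-share cells of libraries 6, 7 and 8. In libraries 10 and 11 it was at 1079 and 1317 CPM in low-share cells and at 307 and 431 CPM in high-share cells, outside the range of 1 dpi on either side. MAFF also had a called interaction (-1.05 ± 0.18 SE, edgeR adjusted p = 0.00146), with the same sign as the uncalled values of SRXN1 and GCLM.

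Of 30 other NRF2 targets tested with time, 6 were called higher and 6 lower (median 0.00), as many in either direction. EPHX1 (0.58) and ABHD4 (0.49) were among the called genes with the largest rises, and those with the largest falls were PIR (-0.95), ME1 (-0.69) and IDH1 (-0.61). Between the share groups 7 of 26 were higher and 4 lower (median 0.29). MGST1 (0.93), EPHX1 (0.61) and TXN (0.55), the thioredoxin that TXNRD1 reduces, led the higher genes, and OSGIN1 (-1.35), ABHD4 (-0.64) and SLC3A2 (-0.51) the lower. In the interaction 1 was higher (GPX2, 1.25) and 3 lower (BLVRB, -1.45, SLC3A2, -0.84, and SLC7A11, -0.53), of which SLC3A2 and SLC7A11 form the cystine importer that feeds glutathione synthesis.

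Of 33 glutathione and peroxide enzymes, 9 were higher and 5 lower with time (median 0.13), with GPX7 (0.99), GLRX (0.65) and TXNRD2 (0.63), the mitochondrial thioredoxin reductase, at the top and SESN2 (-0.76), GLRX2 (-0.51) and GLRX3 (-0.51) at the bottom. Between the share groups 11 of 33 were higher and 3 lower (median 0.21). GSTO1 (0.75), GSTK1 (0.73) and GGCT (0.72) led the higher genes, and CHAC1 (-0.998), which degrades glutathione, TXNIP (-0.80), which inhibits thioredoxin, and SESN2 (-0.78) were the 3 lower ones. In the interaction 3 were higher (GSTK1, 0.68, GGCT, 0.60, and PRDX2, 0.59) and 6 lower, among them GPX8 (-1.83), SESN2 (-1.47) and TXNIP (-1.38).

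Of 33 other genes of iron handling, 3 were higher and 8 lower with time (median -0.17). SLC39A8 (0.65) and SLC11A2 (0.41), metal importers, and PCBP2 (0.53), a chaperone that delivers iron to ferritin, rose. SLC25A37 (-0.67), the mitochondrial iron importer, NFS1 (-0.62), which provides sulfur for iron-sulfur clusters, and the metalloreductase STEAP1 (-0.56) had the largest falls. Between the share groups 2 of 30 were higher (STEAP3, 1.01, and SLC39A8, 0.74) and 1 lower (ALAS1, -0.45). In the interaction 2 were higher, among them STEAP2 (0.82), and HSPA9 (-0.60) was lower.

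Of 18 ferroptosis genes 1 was higher with time and 9 were lower (median -0.34), with SCD (-1.13), which makes monounsaturated fatty acids, and AIFM2 (-0.70), which encodes a GPX4-independent suppressor of lipid peroxidation, among the farthest down. The list holds genes that favor and genes that oppose ferroptosis. Between the share groups 2 were higher (CISD1, 0.60, and VDAC3, 0.47) and 2 lower (ALOXE3, -1.13, and SAT1, -0.52), and the interaction by edgeR called 0 of 18 in either direction, with 0 higher and 4 lower at an unadjusted p under 0.05.

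From cell to cell, FTH1 and FTL went together more than any other pair of members, with a median rho over the 5 libraries of 0.29 (from 0.24 to 0.36). Other pairs were weak, such as TFRC with FTH1 (-0.02) and TFRC with FTL (0.04). The genes whose cell-to-cell pattern was most like that of FTH1 were S100A6 (0.38), S100A10 (0.33) and RPS6 (0.33), and for FTL they included RPS16 (0.36) and RPS19 (0.35). TFRC had LDHA (0.24), ATP1B3 (0.18) and NAA50 (0.17), and GPX4 had CIRBP (0.22), EEF2 (0.20) and RPL36 (0.19). For GCLC they were MTMR6, SENP2 and CHORDC1 (0.20, 0.19 and 0.18), and for TXNRD1 ANLN, PNPLA2 and KLHL21 (0.16, 0.14 and 0.13). These are correlations on cells thinned to 5000 UMIs, where a gene with few UMIs can only correlate weakly, and they stand as a description. FTH1 had a variance between cells of 3.07 to 6.97 times its mean in thinned cells, where counting alone gives 1, FTL had 1.62 to 4.14 and TFRC 1.08 to 1.65. In library 10 FTL (4.14) was above FTH1 (3.07), and HMOX1 stood at 4.32 in library 8.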

How the data were processed

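SORT-seq libraries of 5 plates (3 of 1 dpi, 2 of 4 dpi) were analysed. The authors aligned read 2 with BWA (version not given in the sources used here). hg38 is the build named in the submitters' processing notes. The deposited values are unnormalized UMI counts, 1 column per well. Human totals were 4487175 to 7632953 UMIs per library, and ERCC spike-ins were left out of totals, except in the filter on wells. Wells were kept as in the authors' code (more than 2000 genes, less than 25% mitochondrial UMIs, genes in at least 10 wells), and 15022 human genes remained. All plates use the same 384 well barcodes, and no doublet caller was run on these FACS-sorted cells. The members and lists were chosen with earlier results of these data known.

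Counts were summed per library, or per library and share group, and tested with edgeR 4.0.16 (limma 3.58.1, R 4.3.3): filterByExpr, TMM and a two-sided quasi-likelihood test, with p values adjusted by Benjamini-Hochberg over all genes tested and called under 0.05. CPM of single genes per library, or per low and high share group, are TMM scaled. Sums of lists, the 4 groups of equal size and the wells outside the filter use plain totals. SE is the log2 difference divided by the square root of F. The tests were tried on simulated data with known changes of 1 on the log2 scale and an assumed spread between libraries. By edgeR 96.5% of these were recovered with time, 97% between share groups and 54.5% in the interaction. Unchanged genes made up 5.39%, 6.28% and 1.8% of the calls. Shares have exact Clopper-Pearson intervals (95%).

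Genes named are the members, up to 3 called rises and falls per list and comparison, and the 3 genes most correlated with each member seen in at least 50% of the cells of every library. Some genes that this rule names are not reported here. Markers named to check the cells come from fixed lists. Alternatives were DESeq2 1.42.0, its size factors, no filter on low counts, 1000 or 3000 genes per cell, and 15% or no mitochondrial maximum. Others were thinning to 5000 UMIs, the code in the data names as a term, and mitochondrial genes left out or kept. The last were the outer of 3 tiers of share, no block and leaving out each library. Promoters were taken from RefSeq and untranslated regions from GENCODE. The table of well barcodes was not used.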

Additional observations from a re-analysis of the deposited data

Results flagged for a closer look

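SRXN1, GCLM and GCLC are listed here because the 3 libraries of 1 dpi went one way and the 2 libraries of 4 dpi the opposite way in their relation to mitochondrial share (3 of 9 members, against 6.53% of 11003 genes in either order). The interaction of share and time was -0.64 for SRXN1, -0.64 for GCLM and -0.40 for GCLC on the log2 scale, none past the threshold by edgeR (adjusted p = 0.0580, 0.0964 and 0.321). With 3 and 2 libraries per time point, single libraries could not be examined for outlying values. In library 8, HMOX1 had 12 UMIs in 4 of 163 cells.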

How the results depend on the processing

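No paired analysis was possible because the libraries of 1 dpi and 4 dpi share no replicate number. TFRC, FTL, GPX4 and NQO1 kept their calls between the time points under all 17 alternatives. Thinning to 5000 UMIs left 632 genes higher and 551 lower with time, against 1695 and 1790, and low-share cells alone, an alternative chosen after seeing the data, left 1073 and 1072. With 1 library left out the counts ranged from 1155 to 1440 and from 1197 to 1500, and members called ranged from 2 to 2 higher and from 2 to 4 lower. Members called lower fell to 2 with a mitochondrial share under 15%, after thinning and in low-share cells alone. Between share groups, 1151 genes higher and 1045 lower became 494 and 457 under 15%, 367 and 255 after thinning and 388 and 307 with no library block, and 564 to 976 and 455 to 952 with 1 library left out. Of the 3 members called higher there, 1 remained under DESeq2, 0 under 15%, 0 after thinning and 0 with no block, and 0 to 2 with 1 library left out. Interactions, 295 higher and 493 lower, became 54 and 139 under DESeq2, 73 and 133 after thinning and 754 and 963 between the outer of 3 tiers of share, and 44 to 259 and 87 to 406 with 1 library left out. Members with a lower interaction numbered 1 with 1000 genes per cell, 2 with no mitochondrial maximum and 1 between the outer tiers.

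Signs turned only in results that had not passed the test. With time, FTH1 became 0.0047 under 15% and 0.036 in low-share cells and ranged from -0.14 to 0.016 with 1 library left out (positive without library 7), and GCLM became 0.13 under 15%, 0.13 after thinning and 0.27 in low-share cells and ranged from -0.12 to 0.034 (positive without library 11). Between share groups SRXN1 became 0.012 under 15% and ranged from -0.15 to 0.028 (positive without library 10 or 11). In the interaction FTH1 ranged from -0.33 to 0.014 (positive without library 11), FTL became 0.15 under 15% and ranged from -0.20 to 0.012 (positive without library 10), TFRC became -0.38 under 15% and -0.35 after thinning, and TXNRD1 became -0.069 with no mitochondrial maximum, -0.17 after thinning and -0.036 between the outer tiers and ranged from -0.093 to 0.073 (negative without library 7 or 10). Apart from fewer cells, UMIs or libraries, the cause was not tested. Where a library of 4 dpi is left out, the lone library is assumed to vary like those of 1 dpi. Depth limits HMOX1 above all, and NQO1 at 4 dpi.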

Other observations

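Wells outside the filter entered no comparison. At 4 dpi, 55 wells had enough genes but a mitochondrial share above the limit (median 12455 UMIs), with 2239 CPM of FTH1, 1046 CPM of FTL, 106 CPM of TFRC and 563 CPM of GPX4, counted outside the mitochondrial genome and pooled over both libraries. Only 5 such wells were found at 1 dpi. The 227 wells of 4 dpi with few genes (median 292 UMIs) had 118 CPM of TFRC. The 507 such wells of 1 dpi (median 247 UMIs) had 250 CPM. These values rest on a mean of 0.066 and 0.12 TFRC UMIs per well and were not tested.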
